A study of Mus musculus with 28 samples.

Results

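mmu-mir-375-3p, the 3p arm of the microRNA miR-375, was followed through the alveolar macrophage (AM) miRNome of mice exposed to filtered air (FA) or ozone (O3). It was taken as the row of that name in each of the 4 deposited tables, and it is 1 of 607 miRNAs listed in at least 1 of them. The 28 small RNA libraries form 8 groups of genotype, sex and exposure. Co-ex mice are humanized transgenic animals that carry human SP-A1 and SP-A2 together (variants 6A2/1A0), made on a background that lacks mouse surfactant protein A, and KO mice lack SP-A altogether, so that no group carries the mouse protein. All were 12 weeks old and labelled C57BL/6 (the co-ex line was made on C57BL/6J), breathed FA or O3 for 3 h and recovered for 4 h before AM were collected by bronchoalveolar lavage. Each co-ex group (females in FA, females in O3, males in FA, males in O3) held 4 libraries and each of the same KO groups held 3. The study describes exposed groups of 4 animals, and why each KO group has fewer libraries is not stated in the sources used here. The labels do not say that a library is 1 animal, so the p-values measure the spread between libraries.

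miR-375 is best known from the hormone cells of the pancreatic islet, where it restrains insulin release, and it is also abundant in many epithelia, among them neuroendocrine and secretory cells. Like other miRNAs it is cut from a hairpin precursor and guides Argonaute to messages that pair with its seed, the short stretch near its 5′ end. Messages known to be targeted by it include Mtpn, which encodes myotrophin and acts in secretion, and the kinase gene Pdpk1. The growth co-activator gene Yap1 and the cytokine signalling gene Jak2 are others.

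The gene Mir375 lies between protein-coding genes on the minus strand of mouse chromosome 1, at chr1:74900658-74900721 in GRCm38. The GENCODE annotation places it outside every other gene, with the cilium gene Cfap65 1349 bases away and the lens crystallin gene Cryba2 7514 bases away. The RefSeq hairpin of the same build is shown here because it is the precursor of the measured miRNA, with its other mature arm, miR-375-5p, in capitals. That 5p arm was listed in 0 of the 4 tables.
Mir375 hairpin: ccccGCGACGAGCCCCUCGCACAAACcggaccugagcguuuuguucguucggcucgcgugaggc

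The mature miRNAs below are those against which miR-375-3p is read later: the miR-200 family, which marks epithelial cells, and the other miRNAs whose levels ran most like its own. Capitals mark the seed, bases 2 to 8 from the 5′ end. miR-200a-3p and miR-141-3p share the first seed, and miR-200b-3p, miR-200c-3p and miR-429-3p share the second. All are RefSeq sequences on GRCm38.
mmu-miR-200a-3p: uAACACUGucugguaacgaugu
mmu-miR-141-3p: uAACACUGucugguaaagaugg
mmu-miR-200b-3p: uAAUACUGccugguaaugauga
mmu-miR-200c-3p: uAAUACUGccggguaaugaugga
mmu-miR-429-3p: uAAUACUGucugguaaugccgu
mmu-miR-34c-3p: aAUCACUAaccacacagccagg
mmu-miR-92b-3p: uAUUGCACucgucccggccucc
mmu-miR-3473e: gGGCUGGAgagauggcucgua
mmu-miR-672-5p: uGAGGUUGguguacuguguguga

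The libraries held between 41542 and 2082034 miRNA reads, with a median of 490152, and miR-375-3p was counted in every one, with 91 to 8667 reads. It ranked between the 21st and the 161st most counted miRNA of a library. A library with 3 reads of it would have had a normalized value of 1.04 to 12.9, far under any value seen, so depth did not limit detection. Macrophages and other myeloid cells are marked by miR-223-3p, miR-142a, miR-146a-5p, miR-155-5p, miR-21a-5p and miR-511-3p. All 7 arms were listed in all 4 tables, and their summed level ran from 42511 to 223181 RPM (reads per 1000000 miRNA reads of the library). miR-21a-5p gave most of that sum, with a median normalized value of 62991 in KO females in FA against 3212 for miR-223-3p. In co-ex females miR-142a-3p had a FA median of 1.05 and was not tested. Some libraries stood apart from their groups in marker miRNAs of other cell types. In KO males in FA, replicate 3 held 24872 RPM of 11 epithelial miRNAs where the other libraries held 2226 and 2551, and 25848 of 6 mesenchymal miRNAs where they held 833 and 817. In co-ex males in O3, replicate 2 held 25701 RPM of the epithelial miRNAs against 3513 to 9065 in the other 3. In KO females in O3, replicate 3 held 85312 RPM of muscle miRNAs against 18.5 and 720. Among co-ex libraries in FA, male replicate 4 held 10099 RPM of multiciliated miRNAs against 1077 to 1479 in the other 3, and male replicate 2 held 9105 RPM of mesenchymal miRNAs against 525 to 979. Female replicate 1 held 8307 RPM of muscle miRNAs against 110 to 609, and female replicate 3 held 137372 RPM of red cell miRNAs against 12810 to 22035. The O3 change of miR-375-3p is given below with and without these libraries. In such bulk libraries, fewer cells of a type and less RNA per cell cannot be told apart.

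The first question was whether O3 changed miR-375-3p in AM of each genotype and sex. It was higher after O3 in KO females, by 4.17 ± 0.65 on the log2 scale (SE, n = 3 and 3). In co-ex females, co-ex males and KO males no such call was made, and in KO males and co-ex males the estimate turned on a single library. Values below are the deposited normalized values, reads divided by the size factor of the library, and they can be compared only within a table, since each table was normalized on its own.

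In KO females in FA the 3 libraries read 212, 66.6 and 475, a mean of 251 ± 207 (SD). After O3 they read 2519, 4604 and 3445, a mean of 3523 ± 1045 (SD), or 14.0 times the FA mean. Every O3 library lay above every FA library. Such a separation, in either direction, held for 100 of the 319 miRNAs tested (31.3%). In the fit over all 319 miRNAs, limma gave a 95% interval of 2.68 to 5.66 and an adjusted p of 0.00523. miR-375-3p was 10th by p-value. Among these, 42 miRNAs (13.2%) passed an adjusted p of 0.1, 32 of them higher (10%). An exact two-sided permutation test of the 3 against 3 libraries gave p = 0.1, the smallest this design allows. Without the library high in muscle miRNAs the change was 4.16, with a limma adjusted p of 0.0499. Every O3 library was also shallower than every FA library, at 111080 to 634775 reads against 744541 to 1002869. The part of depth in this change was not tested.

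In KO males in FA the libraries read 366, 630 and 9404, and after O3 they read 4894, 7044 and 4731. The FA library at 9404 was the highest of all 6, so the groups overlapped, while the other FA libraries lay below every O3 library. The library code of that highest library also lay apart from the codes of the others, and the part of separate handling was not tested. The means were 3466 ± 5144 in FA and 5556 ± 1291 in O3 (SD, n = 3 each), a ratio of 1.60, and the ratio of the medians was 7.77. limma gave a log2 change of 2.08 ± 1.14 (SE), with a 95% interval of -0.62 to 4.77 and an adjusted p of 0.766 over 440 miRNAs, and an exact permutation test gave p = 0.4. On the recovered reads the change was smaller, 0.83 with edgeR (adjusted p = 0.991) and 0.73 with DESeq2, which gave no adjusted p. Among the 440, 4 miRNAs passed (0.909%), all higher, and 56 (12.7%) had libraries that did not overlap. Without FA replicate 3 the change was 3.51 with a limma adjusted p of 1.22e-06, the number of miRNAs that passed was 86, and the exact permutation test on the remaining libraries gave p = 0.1, the smallest it can give.

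In co-ex females the FA libraries read 1754, 961, 877 and 1499 and the O3 libraries 1649, 933, 923 and 944. All O3 libraries lay inside the FA range, all but replicate 1 lay close together, and the groups overlapped throughout. The means were 1273 ± 423 in FA and 1112 ± 358 in O3 (SD, n = 4 each), a ratio of 0.874. limma gave a log2 change of -0.18 ± 0.39 (SE), with a 95% interval of -1.02 to 0.65 and an adjusted p of 0.913 over 271 miRNAs, and an exact permutation test gave p = 0.686. Among the 271, 1 miRNA passed (0.369%), which was lower, none was called higher (0%), and 11 (4.06%) had libraries that did not overlap. The interval excludes a rise of the size fitted in KO females. Without FA replicate 1 the change was -0.0067, and without FA replicate 3 it was -0.34.

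In co-ex males the FA libraries read 217, 240, 414 and 1248. The O3 libraries read 479, 3488, 191 and 664. The lowest and the highest of the 8 values were both O3 libraries, and the groups overlapped. The means were 530 ± 487 in FA and 1206 ± 1534 in O3 (SD, n = 4 each), a ratio of 2.28. limma gave a log2 change of 0.74 ± 0.82 (SE), with a 95% interval of -1.05 to 2.54 and an adjusted p of 0.944 over 312 miRNAs, and an exact permutation test gave p = 0.514. With limma, 0 of 312 miRNAs passed (0%), 11 had an unadjusted p under 0.05, and edgeR and DESeq2 also called 0. Libraries of 9 miRNAs (2.88%) did not overlap between the exposures. Without O3 replicate 2 the estimate turned to -0.043, and it was 1.28 without FA replicate 4 and 0.49 without FA replicate 2.

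**Figure D1:**
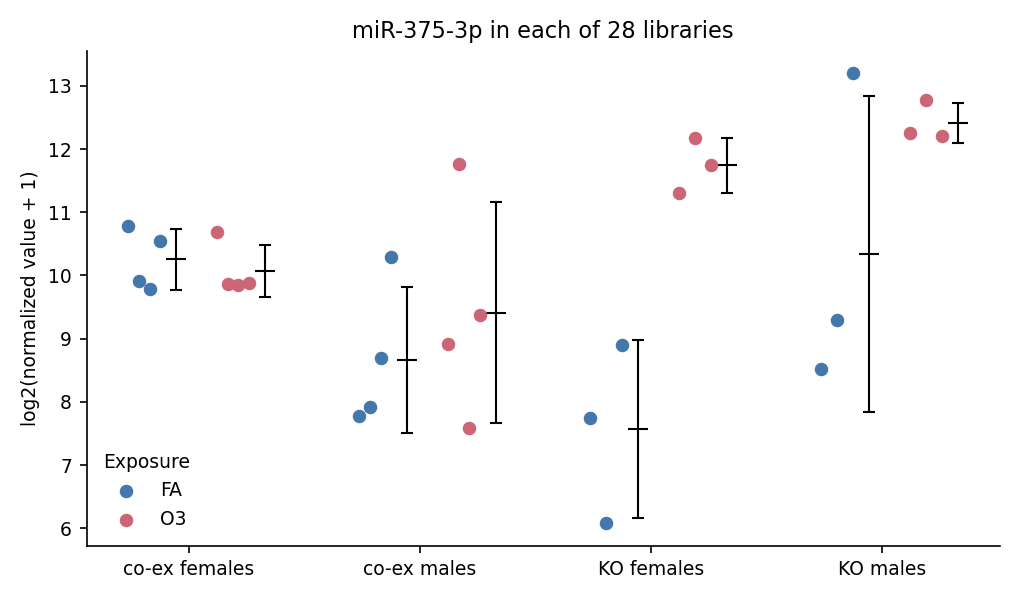
Normalized values of miR-375-3p on the scale log2(value + 1) for each library (points), by table and exposure, with the group mean and SD beside them (black). In KO females the 3 O3 libraries (2519 to 4604) lie above the 3 FA libraries (66.6 to 475); in KO males 1 FA library at 9404 lies above all O3 libraries. Levels of different tables were normalized separately.

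A second question was whether the response differed between genotypes and between sexes. In females the response of co-ex mice was lower than that of KO mice by 4.35 ± 0.74 on the log2 scale (SE; 95% interval of the co-ex minus KO difference -5.92 to -2.78), with a limma adjusted p of 0.0016 over 241 miRNAs. It was the third smallest p of the comparison, in which 21 miRNAs (8.71%) passed, 20 of them lower in co-ex and 1 higher. In males the co-ex minus KO difference was -1.33 ± 1.51 (SE, 95% interval -4.56 to 1.89, limma adjusted p = 0.949), and 0 of 305 miRNAs passed (0%), with 6 at an unadjusted p under 0.05. Without both KO male FA replicate 3 and co-ex male O3 replicate 2, a choice made after seeing the data, that difference was -3.55 with an adjusted p of 0.0479. On the recovered reads with all libraries it had the other sign, 0.39 with edgeR and 0.44 with DESeq2, and missed the threshold in both. Genotype coincided with the table and its library codes, so its part cannot be told apart from that of separate handling.

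The response of males minus that of females was 0.92 ± 0.97 in co-ex mice (SE, 95% interval -1.11 to 2.96, limma adjusted p = 0.968) and -2.09 ± 1.45 in KO mice (SE, 95% interval -5.27 to 1.08, limma adjusted p = 0.824). In the first of these comparisons 0 of 249 miRNAs passed (0%) and 8 had an unadjusted p under 0.05, and in the second 0 of 309 passed (0%) and 17 did. The KO difference was -0.66 without KO male FA replicate 3, and the co-ex difference was 0.14 without co-ex male O3 replicate 2, neither past the threshold. A sex difference of miR-375-3p in its O3 response was not detectable in either genotype.

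Over the 4 tables, with the table as a term, miR-375-3p was higher after O3 by 1.50 ± 0.51 on the log2 scale (SE, 28 libraries), with a 95% interval of 0.45 to 2.55. The limma adjusted p was 0.0684 over 230 miRNAs, among which 37 passed (16.1%), 28 of them higher (12.2%). It was the 23rd by p-value. An exact permutation test with labels exchanged within tables gave p = 0.0109 over 1960000 relabellings. Its statistic was the plain mean of the 4 table differences, 1.70, and not the limma estimate. The call was lost with edgeR (0.94, adjusted p = 0.287) and with DESeq2 (1.05, adjusted p = 0.115), and without any 1 of 7 libraries: co-ex male O3 replicate 2, KO female FA replicates 1 and 2, KO female O3 replicates 2 and 3, and KO male FA replicates 1 and 2. A common value also averages tables whose responses differed, as the test in females shows.

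**Figure D2:**
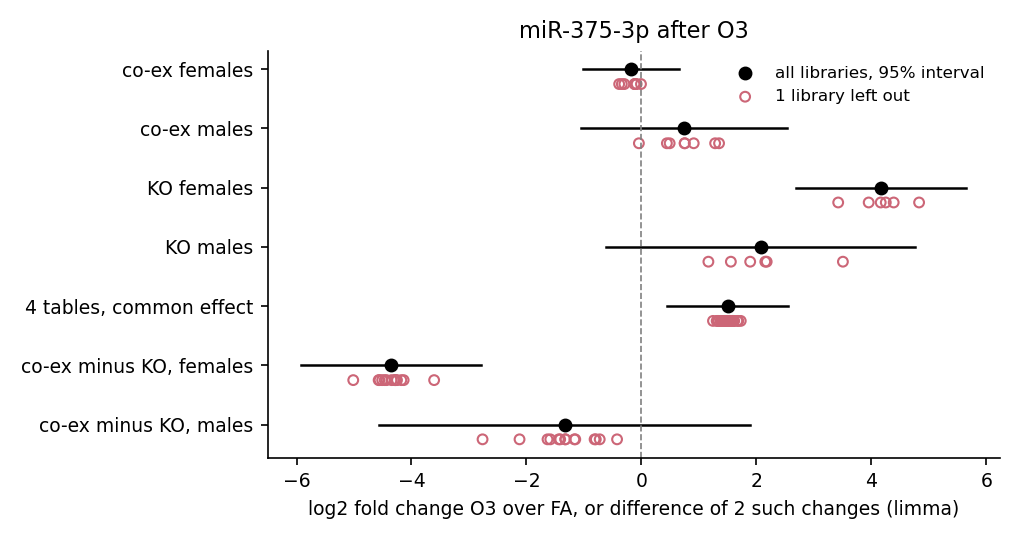
limma log2 fold changes of miR-375-3p, O3 over FA, for each table and over the 4 tables, and the co-ex minus KO differences of that change (x axis). Black points and lines give the estimate with its 95% interval and open red circles the estimates with 1 library left out; the KO female estimate stays between 3.42 and 4.83, the co-ex male one runs from -0.043 to 1.35 and the KO male one from 1.17 to 3.51.

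Between tables, levels can be set side by side only as RPM, from the recovered reads. On that scale the order of the group medians was co-ex females in FA at 8140 (range 5368 to 11421), KO females in O3 at 7029 (5004 to 9624), co-ex females in O3 at 6153 (5863 to 9870) and KO males in O3 at 4163 (3866 to 6115). Below them came co-ex males in O3 at 1721 (512 to 9488), co-ex males in FA at 962 (564 to 4697), KO males in FA at 474 (258 to 6419) and KO females in FA at 375 (112 to 913). Each pair of neighbours in this order had overlapping ranges. The ends did not overlap: every co-ex female library in FA lay above every KO female library in FA. The co-ex female libraries were also the shallower ones, with 41542 to 488993 reads against 111080 to 1002869 in KO females over both exposures. In FA alone the depths did not overlap, at 93520 to 488993 reads against 744541 to 1002869. The part of depth in the difference of miR-375-3p was not tested. Over the 28 libraries the level of miR-375-3p and the total of reads had a Pearson r of -0.50 on log scales, given as a description. This r was -0.44 after table means were taken off and -0.35 after group means were taken off.

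Lavage cells can hold more than macrophages, so marker miRNAs of other cell types were read beside miR-375-3p in every table. The epithelial list held 11 miRNAs: the miR-200 family shown above (miR-200a-3p, miR-200b-3p, miR-200c-3p, miR-141-3p, miR-429-3p), the keratinocyte miRNAs miR-203-3p and miR-205-5p, the miR-183 cluster (miR-182-5p, miR-183-5p, miR-96-5p) and miR-31-5p. The multiciliated list held 6 arms of the miR-34b, miR-34c and miR-449 family, which is known for its part in the making of cilia.

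In KO females 7 of 11 epithelial miRNAs tested were called higher after O3 and 0 lower, where 10% of all miRNAs tested were called higher, and their median log2 change was 3.53 against 0.06 over all tested. The 7 were the whole miR-200 family, miR-182-5p and miR-31-5p. The call of miR-31-5p (limma adjusted p = 0.0702) was lost with a pseudocount of 0.1 (limma adjusted p = 0.138). miR-200b-3p went from 219 to 745 in FA to 2898 to 5716 in O3, a log2 change of 3.26 ± 0.48 (SE, limma adjusted p = 0.00523). miR-141-3p went from at most 4.52 in FA to 59.4 to 89.6 in O3 (5.15 ± 1.09, limma adjusted p = 0.0166). The FA values of miR-141-3p are near 0, so its fold depends on the value added before the log, at 6.68 with a pseudocount of 0.1. The changes of miR-200b-3p and miR-141-3p bracket that of miR-375-3p in the same libraries. miR-203-3p (2.40), miR-205-5p (3.53), miR-183-5p (4.64) and miR-96-5p (1.15) did not pass. Of the multiciliated miRNAs tested, 4 of 5 were called higher, with a median of 4.62. miR-34b-3p went from 88.0 to 476 in FA to 3625 to 7184 in O3, a log2 change of 4.25 ± 0.61 (SE, limma adjusted p = 0.00523). The 7 myeloid miRNAs had 0 calls and a median of -0.30. The summed epithelial level was 1554 to 3921 RPM in FA and 15855 to 27737 in O3, that of the multiciliated miRNAs 201 to 1103 and 9728 to 19040, and that of the myeloid miRNAs 106154 to 123324 and 103943 to 111052. Without the library high in muscle miRNAs, 5 of 11 epithelial and 3 of 5 multiciliated miRNAs were called higher, beside 6.12% of all 343 tested. The part of epithelial RNA in the change of miR-375-3p was not tested.

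In KO males 0 of 11 epithelial miRNAs were called, where 0.909% of all 440 tested were called. Their median log2 change was 1.67 against -0.04 over all tested. Among the multiciliated miRNAs 1 of 5 was called higher, with a median of 3.30. The call was miR-34b-3p, which read 232 to 1292 in FA and 5674 to 8131 in O3 (3.65 ± 0.64, limma adjusted p = 0.0756). The summed epithelial level was 2226 to 24872 RPM in FA and 17038 to 21013 in O3. The FA library at the top of that range was replicate 3, the same one in which miR-375-3p read 9404. Without it 9 of 11 epithelial and 5 of 5 multiciliated miRNAs were called higher, beside 13.8% of all 479 tested, with medians of 2.85 and 4.31, and miR-200b-3p changed by 2.86 (limma adjusted p = 7.18e-07). The 7 myeloid miRNAs had 0 calls and a median of -0.06 with all libraries, and without FA replicate 3 they had 1 lower call and a median of -0.45. In that fit 86 of all 479 miRNAs tested were called, 66 of them higher and the rest lower.

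In co-ex females 0 of 9 epithelial and 0 of 5 multiciliated miRNAs tested were called, where 0.369% of all 271 tested were called. Their medians were 0.74 and 1.00 against -0.16 over all tested. In co-ex males 0 of 10 and 0 of 4 were called, where 0% of all 312 tested were called. The medians there were 0.01 and 0.40 against 0.18, and -0.42 and -0.37 against 0.04 without O3 replicate 2. The co-ex female libraries were rich in both lists under either exposure. Their summed multiciliated level was 11356 to 26239 RPM in FA and 13617 to 24755 in O3, and their summed epithelial level was 6320 to 17415 and 10086 to 37822. In co-ex males the epithelial sum was 3987 to 24763 in FA and 3513 to 25701 in O3. The library of co-ex males with the highest miR-375-3p, O3 replicate 2, had the highest epithelial sum of that table, and FA replicate 4 was next in both. The myeloid medians were 0.23 in co-ex females and 0.45 in co-ex males, with 0 calls in each.

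**Figure D3:**
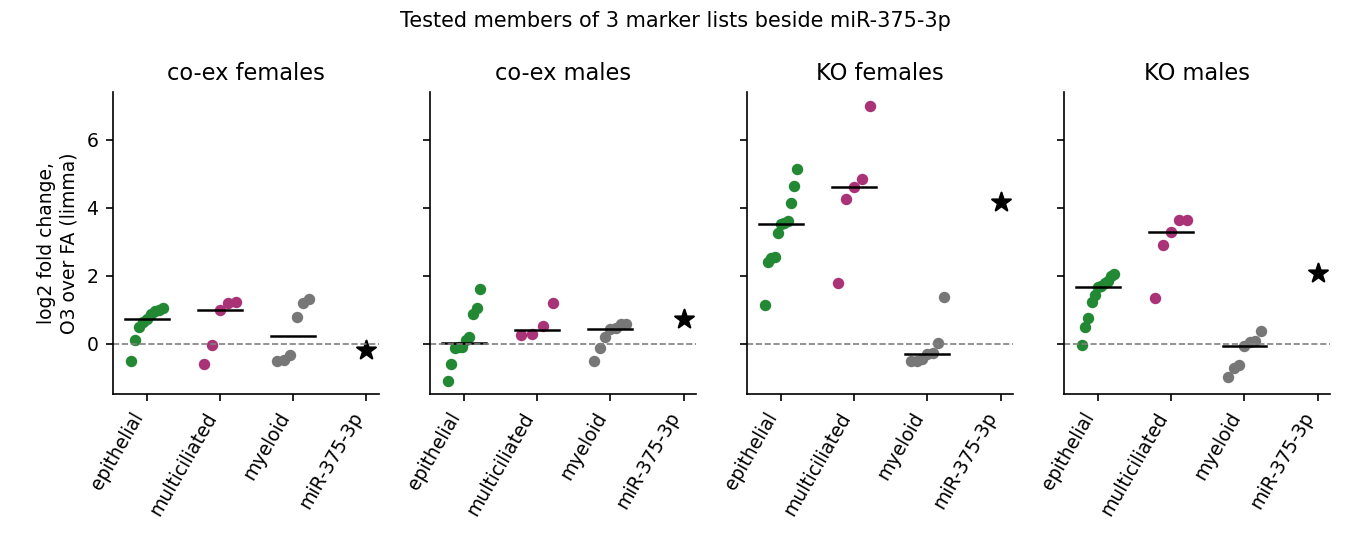
limma log2 fold changes, O3 over FA, of the tested members of the epithelial, multiciliated and myeloid lists (points, with the list median as a line) and of miR-375-3p (star) in each table. In KO females the epithelial and multiciliated medians are 3.53 and 4.62 and miR-375-3p is at 4.17, while the myeloid median is -0.30; in both co-ex tables the medians lie between 0.01 and 1.00.

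Neuroendocrine cells of the airway are another place where miR-375 is known. Of 6 miRNAs taken as neuroendocrine or neuronal, miR-124-3p, miR-129-5p and miR-153-3p were listed in no table, and miR-7a-5p gave most of the reads of the list. Their sum was 228 to 908 RPM in FA and 243 to 721 in O3 over all libraries, and 0 were called in every table. The log2 change of miR-7a-5p was -0.55 in KO females, -0.55 in KO males, 0.52 in co-ex females and 0.45 in co-ex males. Red cell miRNAs had 1 lower call in co-ex females, miR-486b-5p (-3.19 ± 0.61, limma adjusted p = 0.0341), and 0 calls elsewhere. Without co-ex female FA replicate 3, the library richest in them, the table still had 1 call, and without O3 replicate 2 or O3 replicate 4 it had 0. The mesenchymal, muscle and endothelial lists had 0 calls in each table with all libraries. In KO females the 4 mesenchymal miRNAs tested had a median of 2.17, the 1 muscle miRNA 3.61 and the 2 endothelial miRNAs 3.25, and without O3 replicate 3 these were 1.64, 0.35 and 2.53. Without KO male FA replicate 3, 3 of 5 mesenchymal miRNAs and the 1 endothelial miRNA tested in KO males were called higher, beside 13.8% of all 479 tested.

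Across the 28 libraries the level of miR-375-3p moved with the epithelial sum, both in RPM on log scales. Pearson's r was 0.87 and Spearman's rho 0.74, r was 0.87 after table means were taken off, and 0.80 after group means were taken off, which leaves only differences between libraries of the same group. This last value was 0.67 without KO male FA replicate 3 and co-ex male O3 replicate 2. Spearman's rho after group means were taken off was 0.63 with all libraries. The co-ex females after O3 went otherwise. There replicate 1 had the lowest epithelial sum of the group, 10086 RPM, and the highest miR-375-3p, 9870 RPM. Replicates 2 to 4 held 5863 to 6280 RPM of miR-375-3p beside epithelial sums of 23422 to 37822. These are descriptions: both quantities share library and depth.

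The ratio was not constant. In KO females there were 7.20 to 23.3 reads of miR-375-3p per 100 epithelial reads in FA and 29.1 to 34.7 in O3, so the groups did not overlap. In KO males the ranges were 11.6 to 25.8 and 20.5 to 29.1, and in co-ex males 5.76 to 30.2 and 14.6 to 36.9, and both pairs overlapped. Co-ex females had the highest ratios, 32.6 to 92.9 in FA, and 15.5 to 97.9 in O3. The O3 library at 97.9 was replicate 1, the shallowest library of the 28 with 41542 reads, and the other 3 lay at or under 25.7, below all FA libraries.

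**Figure D4:**
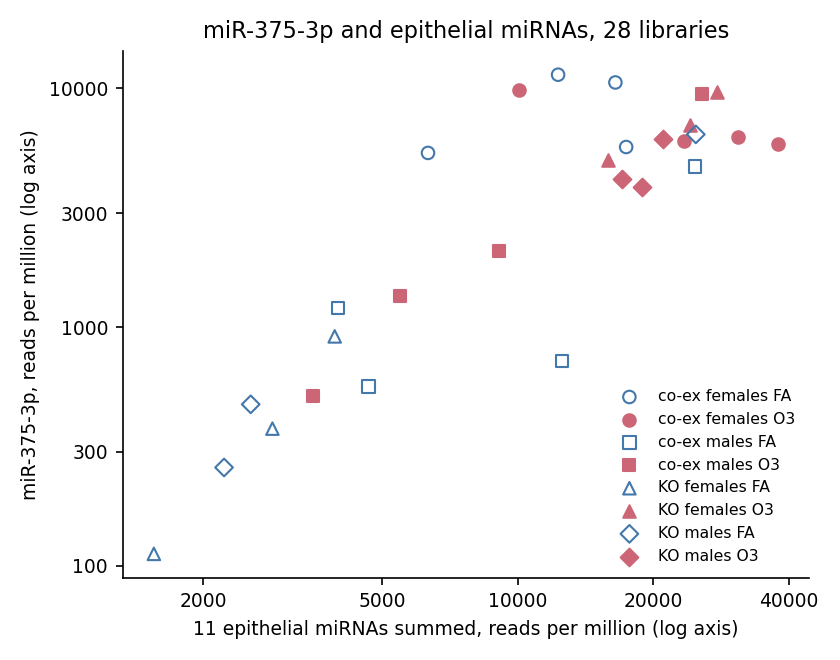
miR-375-3p against the sum of 11 epithelial miRNAs, both in RPM on log axes, for 28 libraries (open symbols FA, filled symbols O3, shapes by genotype and sex). KO libraries in FA lie at the lower left except for 1 male library near 24872 on the x axis, and all KO libraries in O3 lie at 15855 or above on the x axis.

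Among the 229 other miRNAs that passed the filter in all 4 tables, the pattern most like that of miR-375-3p over the 28 libraries, after the mean of each table was taken off, was that of miR-34c-3p, with a Pearson r of 0.92. miR-92b-3p and miR-429-3p followed with 0.90 each, then miR-3473e with 0.89 and miR-672-5p with 0.88. After group means were taken off the same 5 had r of 0.85, 0.84, 0.83, 0.79 and 0.87. miR-34c-3p is an arm of the ciliated-cell family and miR-429-3p a member of the miR-200 family, both on lists above, while the other 3 are on none. No seed printed above is shared between miR-34c-3p, miR-92b-3p, miR-429-3p, miR-3473e and miR-672-5p. The median r was 0.78 over 8 epithelial miRNAs, 0.86 over 4 multiciliated, -0.25 over 6 myeloid and -0.02 over all 229. Among the 20 highest were 5 epithelial and 3 multiciliated miRNAs, and the rest of the 20 were on no list. Beside miR-92b-3p, miR-3473e and miR-672-5p, those were miR-151-3p, miR-151-5p, miR-690, miR-200b-5p, miR-148a-3p, miR-712-5p, miR-6240, miR-3470b and miR-1961.

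Beside miR-375-3p in KO females, miR-34c-3p went from a median of 0.73 in FA to 389 in O3 (7.00 ± 1.06, limma adjusted p = 0.00523), miR-92b-3p from 507 to 6379 (3.54 ± 0.37, adjusted p = 0.00143) and miR-429-3p from 38.1 to 715 (3.56 ± 0.57, adjusted p = 0.00601). The 5 most alike miRNAs were picked on these same values, with O3 changes left in, so a rise beside miR-375-3p was partly built in. The FA value of miR-34c-3p is near that of 1 read, so its fold depends on the value of 1 added before the log. miR-3473e had a median of 0 in FA and 216 in O3 (6.57 ± 1.21, adjusted p = 0.0111), and its change depends on the same addition. miR-672-5p, with medians of 2.26 and 102, missed the threshold (4.26 ± 1.52, adjusted p = 0.132). In KO males miR-92b-3p read a median of 936 in FA and 7633 in O3 (2.66 ± 0.79, adjusted p = 0.332), and without FA replicate 3 it changed by 3.59 (adjusted p = 7.96e-07). In the co-ex tables none of the 5 was called, with adjusted p of 0.778 to 0.975 in females and 0.944 in males.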

How the data were processed

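Small RNA was sequenced from AM of 28 samples in 8 groups. According to the study's methods the authors passed the reads through CASAVA, trimmed them with the FASTX-Toolkit, removed adapters, and aligned and counted miRNAs with Chimira. The genome build and miRNA release are not given in the sources used here. The deposited library columns hold a signal, reads divided by a size factor set within each of 4 tables. Their values were whole multiples of 1 step for 100% of values (tolerance 0.01), so the reads were recovered. The tables also hold the authors' mean levels, fold changes, p-values, q-values and ranks, which were not used, and 0 columns of other samples.

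miRNAs reaching a value of 5 in a number of libraries equal to the smaller group were fitted with limma 3.58.1 (R 4.3.3) on log2(value + 1), so that fold changes of low miRNAs are understated. Benjamini-Hochberg adjusted p under 0.1, the study's threshold, was called. Differences between tables were tested as contrasts, and exact permutation tests were two-sided. edgeR 4.0.16 (quasi-likelihood, TMM) and DESeq2 1.42.0 were run on recovered reads; the authors used edgeR with TCC. The steps were tested on simulated data. Alternatives were a pseudocount of 0.1, no filter, total-count scaling, a replicate block and leaving out each library. miR-375-3p and the marker lists were chosen with earlier results of these data known. Named were miR-375-3p and its partner arm, the 5 miRNAs of highest Pearson r with it, and marker list members. Likeness of miRNAs sharing its seed was not analysed here. Reads carry no molecular identifiers, so floors cover counting error only.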

Additional observations from a re-analysis of the deposited data

Results flagged for a closer look

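In co-ex females after O3, replicate 1 had a normalized value of 1649 where the other 3 libraries read 923 to 944, a gap that is nearly the whole range of the group. It is the library with the fewest reads, 41542, of which 410 were miR-375-3p. Without it the O3 change in co-ex females was -0.39 on the log2 scale, and it was not called either way. In co-ex males after O3, replicate 2 had a value of 3488 where the others read 191, 479 and 664, from 4080 reads of miR-375-3p in a library of 430018, and the change in co-ex males was -0.043 without it. Both were picked out because 1 sample lay far from the other 3 of its group. A group of this size is picked out by chance at times, and the groups of 3 were not tested in this way.

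The O3 response in females differed between genotypes by the test of the difference itself, -4.35 on the log2 scale for co-ex minus KO, with a limma adjusted p of 0.0016. The 3 KO female O3 libraries were each above the 3 FA libraries, while the co-ex female groups overlapped. The FA levels of the groups also differed, at a median of 8140 RPM for co-ex and 375 for KO. Each genotype had its own table and library codes, so separate handling cannot be told apart from genotype.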

How the results depend on the processing

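The rise in KO females and the co-ex minus KO difference in females kept their direction and call under every alternative run, at 3.42 to 4.83 and at -5.01 to -3.61 on the log2 scale. The common change over the 4 tables, 1.50, was lost with edgeR (0.94), DESeq2 (1.05) and the replicate block (1.50, adjusted p = 0.116), and ran from 1.25 to 1.73 without 1 library. Libraries with the same replicate number had correlations of -0.28 to 0.23, so the numbers were not taken to pair them; the block changed no other call of miR-375-3p. In co-ex males the change ran from -0.043 (without O3 replicate 2) to 1.35 without 1 library, and in KO males from 1.17 to 3.51 (without FA replicate 3), with 0.83 from edgeR and 0.73 from DESeq2. The co-ex minus KO difference in males was 0.39 with edgeR, 0.44 with DESeq2 and -3.55 without both libraries that stood apart. The miRNAs called in KO males numbered 4, or 2 with edgeR, 15 with DESeq2 and 0 to 86 without 1 library; in KO females 42, or 36 with edgeR, 62 with DESeq2 and 25 to 52 without 1 library; in co-ex females 1, or 0 to 1 without 1 library. The causes were not tested, and 3 or 4 libraries a group limit precision.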
